A study of Mus musculus with 6 samples.

Results

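The smooth muscle contractile genes examined here are 10 genes taken by name: Acta2, Tagln, Cnn1, Myl9, Myh11, Tpm1, Tpm2, Actg2, Des and Lmod1. They were chosen with earlier results of these data known, so counts of them set beside all genes are descriptions. All 10 were present among the 22609 gene symbols of the count lists, and all 10 had enough reads to be tested, beside 13117 genes tested in all. Their RNA was measured in primary adipocytes cultured from the stromal vascular cells of inguinal white fat (iWAT) of C57BL6 male mice, 3 weeks old per the labels, which were differentiated in the dish. The control group (mimic control, labelled as a control vector) and the miR-182-5p group (miR-182-5p mimic, labelled as overexpression) each held 3 samples. No genetic change of the mice is named for either group, and the groups differ in what was transfected. Such cultures hold differentiated adipocytes together with stromal cells that did not differentiate. The labels name electroporation as the transfer and the study's methods name a lipid reagent and slightly older mice. Neither says whether the 3 samples of a group came from separate mice or cultures, so the p-values below measure the spread between these samples, which may be technical. Reads on genes ranged from 25869810 to 28796712 per sample. The libraries were made from poly(A) RNA, which does not show the level of the mature miRNA.

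Smooth muscle cells contract when myosin pulls on actin filaments. Acta2 and Actg2 encode the actins of these filaments, Tpm1 and Tpm2 encode tropomyosins that lie along them, Tagln and Cnn1 encode actin-binding proteins, Lmod1 encodes a nucleator of actin filaments, Myh11 and Myl9 encode a heavy and a regulatory light chain of myosin, and Des encodes the intermediate filament protein desmin. Most of these genes are classic targets of serum response factor (SRF), which binds a DNA element called the CArG box together with myocardin or the myocardin-related factors Mkl1 and Mkl2. These cofactors respond to the state of the actin cytoskeleton, and in fat the same genes are expressed by vessel walls and, in part, by stromal cells that carry stress fibres.

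The miRNA that was introduced is shown first, because its seed (bases 2 to 8, in capitals) defines the 7-base site that was searched for in the contractile genes. RefSeq places the 25 bases of mmu-miR-182-5p at chr6:30165962-30165986 on the minus strand of GRCm38.p6.
mmu-miR-182-5p: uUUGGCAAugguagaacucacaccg
The DNA match to this seed is TTGCCAA. None of the 10 contractile genes (0 of 10) held it in the longest 3′-UTR annotated in GENCODE M21, whereas 1449 of 11432 tested genes with a 3′-UTR did (12.7%). In its account of the qRT-PCR assay the study prints a mature miR-182-5p sequence that differs from this one and has the seed of the miR-30 family, and its transfection methods print no sequence for the mimic. The match to the miR-30 seed, TGTTTAC, was present in Myh11 and Tpm2 and in 1871 of the tested genes (16.4%).

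With the mimic, 8 of the 10 contractile genes were higher at an adjusted p under 0.05 in edgeR's quasi-likelihood test and 0 were lower. The background was high: 46.7% of all genes tested passed this threshold, 23.2% higher and 23.5% lower. The increases were small, from 1.11-fold for Lmod1 to 1.24-fold for Myl9, with a median of 0.19 on the log2 scale over the 10 genes against -0.004 over all genes tested. None of the contractile genes (0 of 10) also passed 1.5-fold, by edgeR, DESeq2 or limma-voom. Over all genes, 7.45% passed both 1.5-fold and an adjusted p under 0.05 in edgeR, 1.97% higher and 5.48% lower. Myh11 and Des did not pass an adjusted p under 0.05. For 8 of the 10 genes the lowest mimic sample was higher than the highest control, a pattern seen in 27.3% of genes tested.

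**Figure D1:**
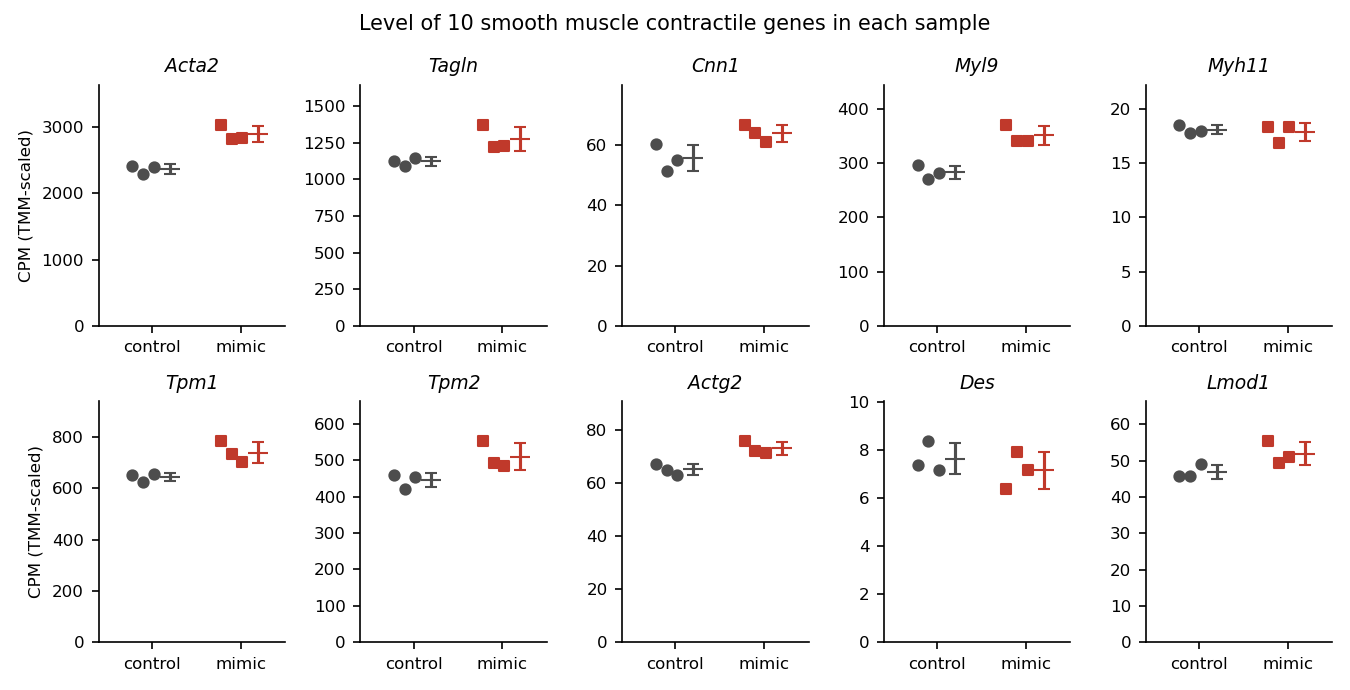
Level in CPM (the reads of a gene scaled to the size of its library, with TMM factors) of the 10 contractile genes in each sample, with grey circles for the 3 mimic control samples, red squares for the 3 miR-182-5p mimic samples, and the mean with its SD beside them on axes that start at 0. The groups are apart in 8 panels and overlap for Myh11 and Des, and the mimic sample farthest to the left (replicate 1) is the highest of the 6 samples in 8 panels.

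Acta2, the alpha-actin of smooth muscle (chr19:34241090-34255590, minus strand, GRCm38), was the most abundant member. Its level was 2409, 2285 and 2398 CPM in mimic control replicates 1 to 3 and 3031, 2817 and 2826 CPM in mimic replicates 1 to 3. All 3 mimic samples stood above all 3 controls, and the means were 2364 ± 68.7 and 2891 ± 121 CPM (SD, n = 3 each). The fold change was 1.22 (95% interval 1.16 to 1.29; log2 0.29, SE 0.037; edgeR adjusted p = 1.95e-05). Actg2 encodes the gamma-actin of enteric smooth muscle (chr6:83512905-83536265, minus strand). It was measured at 67.2, 64.9 and 63.2 CPM in controls and at 75.7, 72.1 and 71.3 CPM with the mimic. These groups did not overlap either, and Actg2 was 1.12-fold higher (1.06 to 1.19; edgeR adjusted p = 0.0028).

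The regulatory light chain gene Myl9 (chr2:156775420-156781658, plus strand) had the largest fold change of the 10. Control samples held 295.5, 271.3 and 281.7 CPM and mimic samples 370.4, 341.1 and 341.1 CPM. The lowest mimic sample was thus above the highest control, and the difference was 1.24-fold (1.17 to 1.31; log2 0.31, SE 0.039; edgeR adjusted p = 1.5e-05). Of all genes tested, 9.0% had a larger log2 fold change than Myl9 and 10.1% a larger one than Acta2. The heavy chain that pairs with this light chain in smooth muscle, Myh11 (chr16:14194535-14291372, minus strand), did not pass the test. It stood at 18.5, 17.8 and 18.0 CPM in controls and at 18.3, 16.9 and 18.4 CPM with the mimic. The 2 groups overlapped, and the interval of the fold change ran from 0.90 to 1.08 (edgeR adjusted p = 0.83). This interval ends below the smallest fold change fitted for the 8 genes that rose, 1.11 for Lmod1. It overlaps the interval of Lmod1 (1.03 to 1.19), so a difference between these 2 genes was not shown. The sign of the Myh11 estimate (log2 -0.02) turned with library totals without scaling factors (log2 0.019).

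Both tropomyosin genes rose. Tpm1 (chr9:67022590-67049406, minus strand) held 651.1, 626.3 and 658.0 CPM in controls and 783.9, 733.4 and 702.3 CPM with the mimic. Tpm2 (chr4:43514711-43523765, minus strand) held 458.0, 421.9 and 453.9 CPM in controls and 551.6, 491.0 and 484.6 CPM with the mimic. In neither gene did the groups overlap, and in both mimic replicate 1 was the highest sample. The fold changes were 1.15 for Tpm1 (1.08 to 1.21; edgeR adjusted p = 0.000672) and 1.15 for Tpm2 (1.07 to 1.23; adjusted p = 0.00297). Tropomyosin genes give rise to muscle and non-muscle isoforms, and reads counted per gene do not tell them apart.

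Tagln encodes transgelin, also known as SM22 (chr9:45929619-45936058, minus strand), and was the second most abundant member. It was counted at 1128, 1092 and 1149 CPM in controls and at 1374, 1225 and 1231 CPM with the mimic. The rise was 1.14-fold (1.07 to 1.21; edgeR adjusted p = 0.00218), with the groups apart. Of its 1595 exon bases, 971 are shared with exons of Pcsk7 and Gm48529 on the opposite strand. The sources used here do not state whether counting used the strand, and without strand reads of such genes cannot be told apart. Pcsk7 itself was counted at 46.0 ± 2.54 CPM in controls and 50.9 ± 1.71 CPM with the mimic (SD, n = 3 each; edgeR adjusted p = 0.022). Per length it stood at 11.1 CPM per kb in controls, against 704 CPM per kb for Tagln.

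Cnn1, which encodes calponin 1, an actin-binding inhibitor of myosin activity (chr9:22099216-22109630, plus strand), was 60.2, 51.5 and 55.0 CPM in controls and 66.6, 64.0 and 61.0 CPM with the mimic. The highest control and the lowest mimic sample were close, and the fold change was 1.15 (1.06 to 1.25; edgeR adjusted p = 0.00689). Lmod1, the leiomodin of smooth muscle (chr1:135324807-135368065, plus strand), was 45.7, 45.9 and 49.1 CPM in controls and 55.4, 49.4 and 51.1 CPM with the mimic. The gap between its groups was the narrowest among the 8 genes that passed, and its 1.11-fold rise (1.03 to 1.19; edgeR adjusted p = 0.0266) did not pass without mimic replicate 1 (adjusted p = 0.105), without control replicate 1 (0.0947) or without control replicate 2 (0.0925).

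Des (chr1:75360329-75368579, plus strand) had the fewest reads, from 187 to 219 per sample, so its estimate was the least precise. It was 7.39, 8.39 and 7.20 CPM in controls and 6.41, 7.93 and 7.19 CPM with the mimic. The groups overlapped, and the interval of the fold change, 0.81 to 1.09 (edgeR adjusted p = 0.46), was the widest of the 10. It covers falls as large in size as the rises of most other members. Its upper end lies below the smallest rise fitted, 1.11-fold for Lmod1, but within the interval of that gene (1.03 to 1.19). With 3 samples against 3, an exact two-sided permutation test of single genes cannot go below 0.1. It gave that smallest value for each of the 8 genes that passed edgeR's test, 0.8 for Myh11 and 0.4 for Des.

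**Figure D2:**
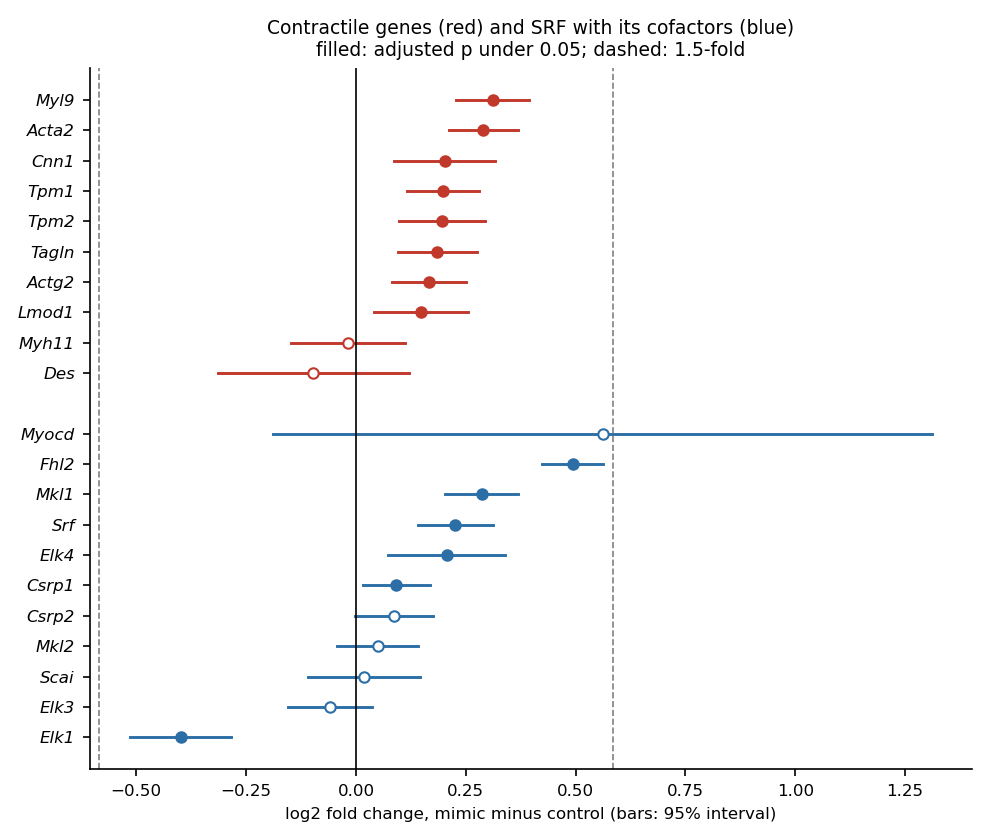
Log2 fold change of mimic over control for the 10 contractile genes (red) and for SRF with its cofactors (blue), with 95% intervals from edgeR, filled circles for an adjusted p under 0.05 and dashed lines at 1.5-fold. The intervals of 8 contractile genes lie to the right of 0 and left of the dashed line, those of Myh11 and Des cross 0, and Fhl2 and Elk1 lie farthest from 0 among the blue genes that pass.

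Levels were set beside each other only after division by exon length, the exon bases of all annotated transcripts of a gene merged. This length (4780 bases for Tpm1) can exceed that of a single transcript, which lowers the level of a gene with several isoforms. In control samples Acta2 stood at 1162 ± 33.8 CPM per kb, followed by Tagln at 704 ± 17.9, Myl9 at 251 ± 10.8, Tpm2 at 187 ± 8.31 and Tpm1 at 135 ± 3.49 CPM per kb (SD, n = 3). Actg2 followed at 47.7 ± 1.48, Cnn1 at 22.0 ± 1.75 and Lmod1 at 11.9 ± 0.486 CPM per kb. The lowest levels were those of Myh11, 2.74 ± 0.061 CPM per kb, and Des, 2.53 ± 0.21 CPM per kb, and these were the one pair of neighbours whose samples overlapped. Myh11 is among the more restricted markers of mature smooth muscle. In these cultures Myh11 and Des were far below Acta2 and Tagln, which many cultured stromal cells also express. Cnn1 and Lmod1, which rose, stood between them. The 2 genes that did not pass were also the 2 with the lowest levels per length.

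Summed over the 10 genes, the level was 5141, 4885 and 5132 CPM in control samples and 6333, 5818 and 5794 CPM with the mimic. The sums did not overlap and their means differed by 929 CPM (5053 ± 145.6 and 5982 ± 304.9, SD, n = 3 each), a description with no test. Acta2 alone carried a large part of this, and without it the difference was 401.8 CPM. In bulk RNA, a change in the number of cells of one type and a change in RNA per cell cannot be told apart.

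The genes were also set against Acta2. The log2 ratio of each gene to Acta2 within a sample, which does not depend on how libraries are scaled, was lower in all mimic samples than in all controls for 7 of the other 9 genes. Of all other genes tested, 69.8% showed the same, since Acta2 was among the genes that rose most, and Myh11 and Des, 2 of the 7, did not themselves pass as higher, so the count of 7 is no result about these genes. For Tagln it was -1.07 ± 0.018 in controls and -1.18 ± 0.034 with the mimic (SD, n = 3 each), and for Myh11 -7.03 ± 0.028 and -7.34 ± 0.063. The exact permutation p was 0.1 for each of the 7, the smallest that this design allows, so unequal rises among the 8 genes were not shown by this test. For Myl9 the ratio overlapped between the groups (-3.06 ± 0.033 and -3.04 ± 0.009, exact permutation p = 0.4), as did that for Cnn1 (p = 0.2). Acta2 accordingly made up 46.7% to 46.9% of all reads on the 10 genes in controls and 47.9% to 48.8% with the mimic.

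SRF and its cofactors, a list of 12 genes of which 11 were tested, gave 5 genes higher, 1 lower and 5 that did not pass, with a median log2 fold change of 0.09. None (0 of 11) passed 1.5-fold in edgeR. Fhl2, a LIM-domain protein that binds SRF and its cofactors, was the largest: 90.2, 87.6 and 92.3 CPM in controls and 130.0, 126.8 and 123.4 CPM with the mimic. These groups were far apart (1.41-fold, log2 0.49, SE 0.033, edgeR adjusted p = 2.98e-08). Mkl1, the myocardin-related factor that actin monomers hold in the cytoplasm, was 64.4, 59.2 and 60.8 CPM in controls and 75.9, 75.2 and 73.7 CPM with the mimic. Srf itself was 86.9, 83.2 and 89.8 CPM in controls and 105.0, 102.9 and 96.1 CPM with the mimic. Both were higher in every mimic sample, by 1.22-fold for Mkl1 (edgeR adjusted p = 3.54e-05) and 1.17-fold for Srf (adjusted p = 0.000337). Csrp1, a LIM protein of smooth muscle, rose by 0.09 on the log2 scale (adjusted p = 0.0494).

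The ternary complex factors, which bind SRF in competition with the myocardin family, did not move as one. Elk1 fell from 45.2 ± 2.32 to 34.3 ± 1.80 CPM (SD, n = 3 each; log2 -0.40, SE 0.054; edgeR adjusted p = 3.19e-05). Elk4 rose from 20.3 ± 1.44 to 23.4 ± 0.719 CPM (log2 0.21, adjusted p = 0.0136). Elk3 was 54.1 ± 2.35 and 51.9 ± 1.57 CPM (adjusted p = 0.295). Mkl2 (log2 0.05), Csrp2 (log2 0.09) and Scai, a suppressor of Mkl1 (log2 0.02), did not pass, with edgeR adjusted p = 0.369, 0.0994 and 0.815. Myocd, which encodes myocardin and is a factor of smooth and cardiac muscle, was close to the limit of detection with 6 to 19 reads per sample. Its groups overlapped and its log2 fold change of 0.56 had an SE of 0.349 (edgeR adjusted p = 0.207). Abra held 0 to 2 reads and was not tested.

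The other arm of SRF targets, growth-induced genes that respond through the ternary complex factors, was listed as 10 genes with Srf among them. Of these, 8 were higher, 0 were lower and 2 did not pass, with a median log2 fold change of 0.23, beside 0.19 for the contractile genes, and 1 passed 1.5-fold. That gene was Fosb, at 1.35 ± 0.044 CPM in controls and 2.22 ± 0.19 CPM with the mimic (SD, n = 3 each; log2 0.71, edgeR adjusted p = 0.00277). Fos (log2 0.42), Nr4a1 (0.38), Junb (0.24) and Ier2 (0.23) also rose, as did Egr1 (0.13) and Mcl1 (0.10). Egr2 (-0.08) and Egr3 (-0.25) did not pass.

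**Figure D3:**
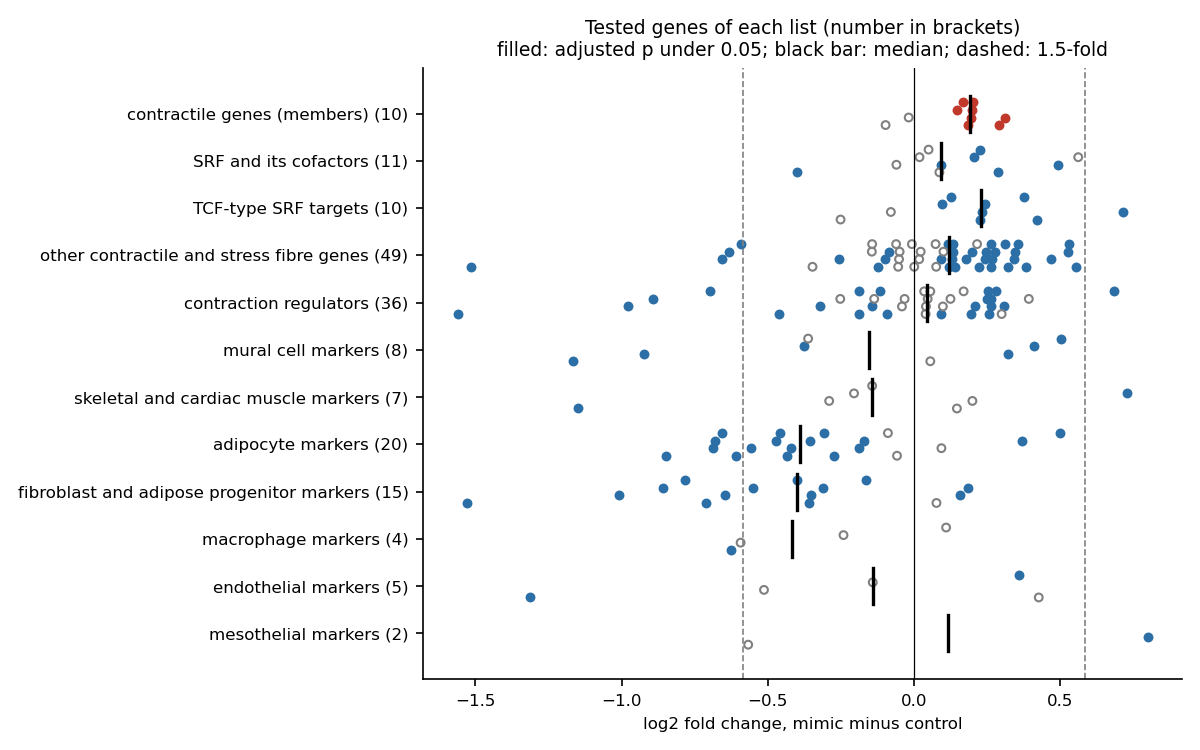
Log2 fold change (mimic minus control) of every tested gene in the contractile genes and in the 11 other gene lists, 1 row per list with the number tested in brackets, filled circles for an adjusted p under 0.05, black bars for the medians and dashed lines at 1.5-fold. The medians of the contractile genes (0.19) and of the growth-induced (TCF-type) SRF targets (0.23) lie to the right of 0. Those of the adipocyte (-0.39), the fibroblast and progenitor (-0.40) and the 4 tested macrophage markers (-0.42) lie to the left. The remaining medians lie between -0.15 (mural cell markers) and 0.12 (other contractile and stress fibre genes).

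Because SRF binds the CArG box, the promoters of the contractile genes were searched for it. RefSeq promoters on GRCm38.p6 (250 bases before and 50 after the start) were at hand for 7 of the 10 genes, not for Tagln, Myh11 and Actg2. The CArG box was taken as CC, then 6 letters that are each A or T, then GG, a pattern that reads the same on both strands. An exact box was found in Myl9, 1 of 7 genes, and in 1.63% of 32851 promoters. A box with at most 1 mismatch was found in 4 of 7, Acta2, Myl9, Tpm1 and Lmod1, and in 21.1% of all promoters. The matches are shown with 10 bases on either side, the box in capitals, as they read on the gene's strand. Whether they bear on the rise of these 4 genes was not tested. Positions count from the RefSeq start. GENCODE starts Acta2 and Tpm1 farther upstream, so both Acta2 windows and the second Tpm1 window fall in a first exon there.
Acta2 at -84 (chr19:34255438-34255467, minus strand): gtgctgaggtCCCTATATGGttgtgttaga
Acta2 at -34 (chr19:34255388-34255417, minus strand): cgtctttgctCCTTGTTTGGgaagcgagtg
Myl9 at -161 (chr2:156775293-156775322, plus strand): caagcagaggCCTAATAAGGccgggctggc
Myl9 at -99 (chr2:156775355-156775384, plus strand): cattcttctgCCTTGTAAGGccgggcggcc
Tpm1 at -221 (chr9:67049415-67049444, minus strand): gctcgggtccCCATATATAGtcatatccac
Tpm1 at -80 (chr9:67049274-67049303, minus strand): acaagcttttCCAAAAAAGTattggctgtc
Lmod1 at -189 (chr1:135324614-135324643, plus strand): gcccccttgtCTTTAAAAGGctaaactgct
Lmod1 at -164 (chr1:135324639-135324668, plus strand): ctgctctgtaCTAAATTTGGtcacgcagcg
Acta2, Myl9, Tpm1 and Lmod1 each held a pair of matches. The MCAT element, CATTCCT on either strand, bound by TEAD factors, was found in Acta2 at -147 and in Tpm1 at -57, and in 5.36% of all promoters. Cnn1 and Tpm2, which rose, and Des, which did not pass, held none of these in the 300 bases, which says nothing about sites elsewhere.

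**Figure D4:**
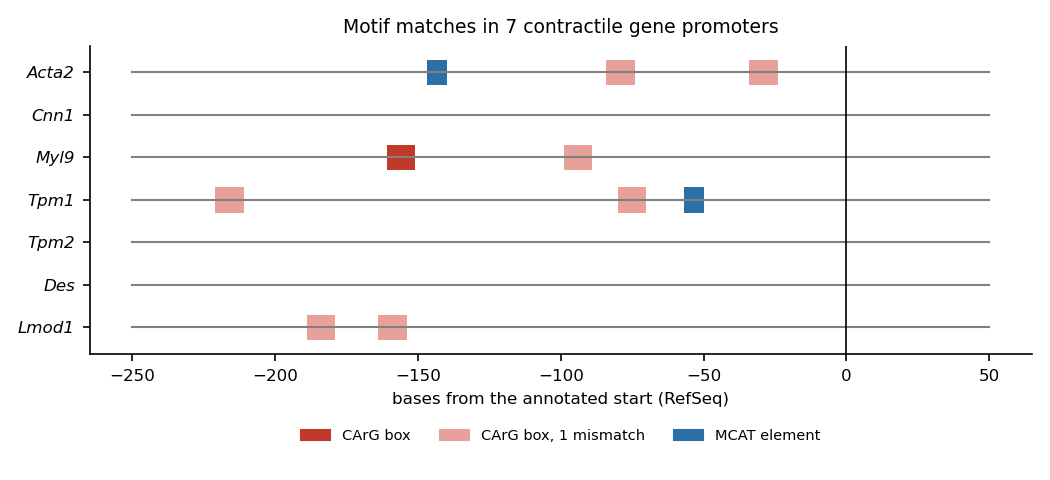
Positions of motif matches in the promoters of 7 contractile genes, in bases from the RefSeq start (vertical line at 0), with dark red for an exact CArG box, light red for a box with 1 mismatch and blue for the MCAT element. Boxes appear in 4 promoters, between -221 and -34, and Cnn1, Tpm2 and Des show none.

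Beyond the 10 genes, 54 other contractile and stress fibre genes were examined, of which 49 were tested (Actn2 and Lmod2 were listed at 0 reads in all samples, and Myl12a was not listed under that symbol). Of these, 26 were higher, 8 were lower and 15 did not pass, with a median log2 fold change of 0.12. None (0 of 49) was higher by 1.5-fold, by edgeR, and 4 were lower by it, beside 1.97% and 5.48% of all genes tested. The largest rises were those of Ldb3, a Z-disc protein (log2 0.56), of the small heat shock proteins Hspb6 (0.53) and Hspb7 (0.53), of the integrins Itga8 (0.47) and Itgb1 (0.38), and of the actin crosslinker Actn4 (0.36). Actn4 was 711 ± 20.4 CPM in controls and 909 ± 21.1 CPM with the mimic (SD, n = 3 each; edgeR adjusted p = 5.37e-07). The 4 genes past 1.5-fold downward were Tmod1 (log2 -1.52) and Tmod2 (-0.63), which cap actin filaments, Myl6b (-0.66), a myosin light chain, and Palld (-0.59), the stress fibre scaffold palladin. Palld fell from 157 ± 5.88 to 104 ± 3.15 CPM (edgeR adjusted p = 9.03e-09), whereas Tmod1 was counted at 1 to 19 reads per sample. Mylk, the kinase that acts on the light chain encoded by Myl9, was 122.5 ± 3.37 and 118.5 ± 4.48 CPM, with overlapping groups.

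Regulators of contraction were split evenly, as were all genes tested (23.2% higher and 23.5% lower). Of 38 listed, 36 were tested, and 11 were higher, 11 lower and 14 did not pass, with a median log2 fold change of 0.04. The myosin phosphatase subunits Ppp1cb (log2 0.26) and Ppp1r12b (0.26), Rnd3 (0.26) and Limk2 (0.28), a kinase that acts on cofilin, were among those that rose. Prkg2, a cGMP-dependent kinase, was the one regulator higher by 1.5-fold, at 4.87 ± 0.137 and 7.83 ± 0.514 CPM (SD, n = 3 each; edgeR adjusted p = 4.07e-05). Rgs2, which shortens signalling from Gq-coupled receptors, fell from 31.9, 34.1 and 32.4 CPM to 10.4, 11.6 and 11.4 CPM (log2 -1.56, edgeR adjusted p = 1.36e-10). Cfl1, the actin-severing protein cofilin, fell from 468.7, 462.3 and 470.6 CPM to 251.7, 229.3 and 230.4 CPM (log2 -0.98, edgeR adjusted p = 4.45e-11). The drop in both was larger than any change among the 10 contractile genes. Gucy1a3 (-0.89) and Gucy1b3 (-0.46), subunits of the nitric oxide receptor, Diap3 (-0.70), a formin, and Atp2a2 (-0.32), the calcium pump of the reticulum, also fell.

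In the longest annotated 3′-UTR, the miR-182-5p site TTGCCAA was absent from the 10 contractile genes. On the lists of other contractile genes and regulators it was present in 19 of the tested genes and absent from 66. Other parts of the transcripts were not searched. Among these 19 genes 6 were higher, 7 were lower, and 5 were lower by 1.5-fold. Among the 66 without the site 31 were higher, 12 were lower, and 3 were lower by 1.5-fold. The medians were 0.02 and 0.10 on the log2 scale. Over all tested genes with a 3′-UTR, 166 of 1449 with the site (11.5%) and 473 of 9983 without it (4.74%) were lower by 1.5-fold, and the difference between the listed genes with and without the site was not tested. For the miR-30 match, 2 of 20 listed genes with it and 6 of 65 without it were lower by 1.5-fold. The shares over all tested genes were not computed for this match, so the 2 seeds cannot be compared on them. The 5 genes that held the site and fell by 1.5-fold are shown with the site in capitals and 10 bases on either side, on GRCm38, to set them beside the seed printed above.
Rgs2 (chr1:144000136-144000162, minus strand): ttttatctatTTGCCAAaagaaatagt
Cfl1 (chr19:5493619-5493645, plus strand): ttcaccccagTTGCCAAacatccctcc
Palld (chr8:61511610-61511636, minus strand): catatcataaTTGCCAAatttttctga
Diap3 (chr14:86656057-86656083, minus strand): tattctgtatTTGCCAAttaaattata
Tmod2, first site (chr9:75573620-75573646, minus strand): gaagttagtaTTGCCAAgctttcacaa
Tmod2, second site (chr9:75571002-75571028, minus strand): ggttactctgTTGCCAAaggaaggatg
A match is a description of the sequence, and binding was not measured here.

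Markers of the cells that could carry contractile genes were read beside them. Of 13 mural cell markers 8 were tested, and 3 rose (Cspg4, Mcam and Ndufa4l2), 3 fell (Abcc9, Kcnj8 and Notch3) and 2 did not pass. The median log2 fold change of the tested mural markers was -0.15. By 1.5-fold, 2 were lower, Abcc9 (log2 -0.92) and Kcnj8 (-1.17, 5 to 16 reads per sample), and 0 were higher. The summed level of the 13 mural markers was 942 to 981 CPM in controls and 1032 to 1051 CPM with the mimic. Most of it was Pdgfrb at 705 ± 13.5 and 733 ± 7.40 CPM (SD, n = 3 each; edgeR adjusted p = 0.117). The pericyte markers Rgs5, with 1 to 9 reads per sample, and Higd1b, with 0 or 1, were near 0. Of 26 skeletal and cardiac muscle markers 7 were tested, and their summed level was 32.8 to 33.9 CPM in controls and 43.5 to 46.7 CPM with the mimic. Acta1, the skeletal actin, made up most of it and rose from 18.5 ± 0.223 to 30.6 ± 2.19 CPM (log2 0.73, edgeR adjusted p = 3.38e-07). Mb was lower (edgeR adjusted p = 0.0402), but its groups overlapped and it held only 5 to 23 reads per sample. Ckm, Myod1, Myf5, Pax7, Myh4 and Myh7 were at 0 reads in all samples.

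Adipocyte markers moved the other way. Of 20, all tested, 15 were lower, 2 higher and 3 did not pass, with a median log2 fold change of -0.39. Their summed level was 43730 to 46830 CPM in controls and 32450 to 38280 CPM with the mimic, and 5 were lower by 1.5-fold. Adipoq, which encodes the adipocyte hormone adiponectin, was 933.2, 946.1 and 905.7 CPM in controls and 616.2, 682.8 and 727.4 CPM with the mimic, so that mimic replicate 1, the highest sample for 8 contractile genes, was the lowest for Adipoq. Fabp4, the adipocyte fatty acid binding protein, fell from 3316 ± 132.1 to 2067 ± 118.5 CPM, whereas Plin4, a lipid droplet protein, rose (log2 0.50) and Plin1 did not pass (log2 -0.06, edgeR adjusted p = 0.316). Fibroblast and progenitor markers also fell: of 15 tested from 16, 12 were lower, 2 higher (Thy1 and Ebf2) and 1 did not pass, from 4324 to 4427 CPM in controls to 3377 to 3481 CPM with the mimic. Pdgfra, a marker of adipose stromal cells, fell from 449.5 ± 4.97 to 247.8 ± 7.54 CPM (log2 -0.86), and Cd34 had a log2 fold change of -1.53.

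Markers of other cells were low. Summed levels were 15.3 to 16.3 and 13.0 to 16.8 CPM for 12 macrophage markers, 17.6 to 18.2 and 16.6 to 17.2 CPM for 10 endothelial markers (with Cldn5 at 0 reads in all samples), and 23.4 to 24.5 and 35.3 to 46.9 CPM for 9 mesothelial markers, in controls and with the mimic respectively. The mesothelial sum was mostly Krt19 (log2 0.80), and Krt8 and Krt18 were listed at 0 reads. Of these lists 4, 5 and 2 genes were tested. The macrophage list had 1 gene lower (Lyz2), the endothelial list 1 higher (Flt1) and 1 lower (Tek), and the mesothelial list 1 higher. The part of any of these cells in the rise of the contractile genes was not tested.

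Genes whose level followed the contractile genes most closely were sought among 8981 genes with a mean of at least 10 CPM, by Pearson's r over the 6 samples with the mean standardised log2 CPM of the 10 genes. The 5 highest outside the lists were Adpgk, an ADP-dependent glucokinase (r = 0.996), Cthrc1, a secreted protein with a collagen-like repeat (0.995), Cth, cystathionine gamma-lyase (0.994), Fbxo32, a ubiquitin ligase subunit (0.993), and Nop2, an RNA methyltransferase of the nucleolus (0.992). Cthrc1, for example, was 53.7, 49.9 and 52.3 CPM in controls and 64.3, 58.9 and 60.1 CPM with the mimic, with mimic replicate 1 again the highest. In all 260 genes reached r of 0.95. The 6 points share their libraries and fall into the 2 groups, so these values describe the pattern and carry no p.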

How the data were processed

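RNA from 6 samples was sequenced as strand-specific poly(A) libraries. The authors deposited raw counts of reads per gene symbol. The submitters' processing notes name bcl2fastq, TopHat2, HTSeq and mm9, with no versions or strand setting given in the sources used here. The 5 tally lines of each list, 47.4% to 47.9% of all its reads, were left out. Reads that align to several places are among these, which can lower genes with near-identical copies. Of 50-base transcript windows, 0.35% of Acta2 and 0.39% of Myh11 were shared with other genes, and none of the other 8.

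Counts were tested in R 4.3.3 with edgeR 4.0.16 (TMM, filterByExpr with a minimum count of 10, glmQLFit, glmQLFTest, two-sided, group as the only term), with Benjamini-Hochberg adjustment over 13117 genes. A call needed 1.5-fold and an adjusted p under 0.05. Permutation tests used log2(CPM + 0.1). Alternatives were DESeq2 1.42.0, limma-voom (limma 3.58.1), DESeq2 or upper-quartile factors, all genes with a count, genes with 10 or more counts in each of the samples, the replicate block and leaving out each sample. Library totals without scaling factors were added after seeing the data. The fits were checked on simulated counts. Replicate numbers came from the labels. Same-numbered samples did not deviate together.

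Members and gene lists were chosen with earlier results of these data known. Named were all 10 genes, all of SRF and its cofactors, up to 6 passing genes per direction with the largest change from every other list, defining markers, and the 5 genes of most similar pattern. Some contraction regulators that pass this rule are not reported here. Mylk, Mcl1, Egr1, Egr2, Egr3 and Pcsk7 were named after their values were seen. Gene models, 3′-UTRs and lengths are GENCODE M21 (GRCm38), and no mm9 coordinates were used. Python 3.11.15 with pandas 2.3.3, scipy 1.17.1 and matplotlib 3.10.9 made tables and figures.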

Additional observations from a re-analysis of the deposited data

How the results depend on the processing

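Of 140 refits of single contractile genes, 135 kept the direction and the side of the threshold. The fold change of Myh11, which never passed, changed sign with library totals without scaling factors (log2 0.019) and ranged from -0.036 to 0.024 when single samples were left out. That of Lmod1 ranged from 0.10 to 0.187 on the log2 scale when single samples were left out, and the call was lost in 3 of these refits. The cause was not tested. The number of contractile genes past the threshold was 7 to 8 without single samples and 8 otherwise, and 0 passed 1.5-fold in every setting. The difference in summed CPM was 401.8 without Acta2 and 753 to 1023 without single samples, with 753 when mimic replicate 1 was left out. Every gene that rose, except Cnn1, had its smallest fold change in that refit. For Tagln it was log2 0.13, against 0.185 with all samples. With the replicate block 925 genes were called in place of 977, and the same 8 contractile genes passed. The correlation of deviations averaged -0.103 for same-numbered and 0.051 for other pairs. With 3 samples per group this cannot show whether same-numbered samples shared mice or cultures. Depth limits Des most, with 187 to 219 reads per sample.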
